A study of Mus musculus with 9 samples.

Results

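The genes described here encode the nuclear-encoded subunits of the mitochondrial respiratory chain and ATP synthase, with the assembly factors whose symbols share the same stems. Members were the genes whose symbol begins with Nduf, Uqcr, Cox followed by a digit, or Atp5, together with Sdha, Sdhb, Sdhc and Sdhd. Of 93 matching genes, 1 pseudogene (Cox7c-ps1) was left out, which gave 92 members among 14020 genes. They comprised 42 genes of complex I, 4 of complex II, 8 of complex III, 22 of complex IV and 16 of complex V. By role, 76 encode structural subunits and 14 encode assembly factors. The other members are the supercomplex factor Cox7a2l and the paralog Ndufa4l2. Ndufa4 and Ndufa4l2 were placed with complex IV, where the Ndufa4 protein is known to reside.

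The respiratory chain passes electrons from NADH (complex I) and succinate (complex II) through ubiquinone, complex III and cytochrome c to oxygen at complex IV. Complexes I, III and IV pump protons across the inner mitochondrial membrane, and complex V uses their return flow to make ATP. All complexes but complex II combine nuclear-encoded subunits with subunits made from mitochondrial DNA.

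RNA was sequenced from cultured mouse hepatic stellate cells, liver pericytes that store vitamin A and become contractile and matrix-producing on activation. There were 3 groups of 3 libraries: wild type (WT), a knock-out of Sqstm1 (Sqstm1 KO), and a double-knock-out, by its label, of Nbr1 and Sqstm1 (DKO). Sqstm1 encodes the autophagy receptor p62 and Nbr1 a related receptor, and the series asks how they act in stellate cells during liver cancer. All cells were kept for 4 days in DMEM with 10% serum under basal conditions. The labels do not say whether the replicates are separate animals or cultures, nor how the alleles were made or which cells carry the deletion. P-values therefore measure only the spread between these libraries, which may be technical. The series text speaks of biological replicates but describes an Nbr1 knock-out rather than these genotypes.

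The values rested on 819677 to 1467793 counted reads per library, of which the members took 0.329% to 0.473% (2755 to 6945 reads). The mean normalized count of Sqstm1 fell from 240 in WT to 52.8 in its own knock-out (limma adjusted p = 0.0023) and to 45.7 in DKO (adjusted p = 0.00116). By library Sqstm1 had 40.8, 30.8 and 86.8 in Sqstm1 KO replicates 1, 2 and 3, and 25.8, 51.4 and 59.9 in DKO. Nbr1 averaged 101, 78.9 and 90.7 in WT, Sqstm1 KO and DKO and was not called in any comparison, so it does not check the double knock-out label. Of 9 markers of hepatic stellate cells, 3 had a row in the table (Pdgfrb, Hgf and Ecm1). Their summed normalized count was 66.7 to 89.7 in WT, 79.2 to 90.9 in Sqstm1 KO and 124 to 141 in DKO. The others, among them Des and Lrat, had no row and were not analysed here. All 7 markers of activated stellate cells had one, and their summed normalized count was 1664 to 1811 in WT, 5420 to 6192 in Sqstm1 KO and 4438 to 6542 in DKO. Of these 7, 5 were called higher in each knock-out group against WT. Col1a1 was higher but not called. Lox went the other way, at 265 to 275 in WT, 125 to 195 in Sqstm1 KO and 175 to 264.9 in DKO, and was not called. None of 7 hepatocyte and none of 4 lymphocyte markers had a row. Of the other marker lists, 2 of 5 for cholangiocytes, 1 of 6 for endothelium, 4 of 7 for macrophages and 4 of 6 for portal fibroblasts and mesothelium had one. Smooth muscle markers (2 of 4, Actg2 and Cnn1) summed to 8.17 to 10.5 in WT, 167 to 201 in Sqstm1 KO and 66.2 to 114 in DKO. The portal fibroblast and mesothelial sum was 5.45 to 9.10 in WT, 30.6 to 42.3 in Sqstm1 KO and 48.4 to 79.9 in DKO, so both knock-out groups lay above WT. Its tested genes were Gas6 and Cd34. The macrophage sum was 20.3 to 35.4 in WT, 8.68 to 12.3 in Sqstm1 KO and 14.3 to 29.3 in DKO. Its only tested gene was Cd14, with means of 17.6, 1.29 and 11.1 in WT, Sqstm1 KO and DKO. Limma called it lower in Sqstm1 KO against WT. The untested Cd68 (4.28, 3.98 and 4.04), Csf1r (1.97, 3.05 and 3.20) and Mpeg1 (1.77, 2.71 and 2.67) did not show this fall. The part of these markers in the members' values was not tested. In bulk samples, fewer cells of a type and less RNA per cell cannot be told apart.

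Sqstm1 KO replicate 3 stood apart in the normalized counts of these genes, and the differences that it moves most are given with and without it. As a share of counted reads it did not stand apart. The members took 0.344%, 0.392% and 0.434% of the reads of Sqstm1 KO replicates 1, 2 and 3, and 0.473% in WT replicate 3. A filter kept genes with a normalized count of at least 10 in at least 3 libraries, which passed 77 of the 92 members and 10118 genes in all. Sqstm1 KO replicate 3 had the highest value of all 9 libraries in 57 of the 77 members (74.0%), against 24.3% of all genes tested. Gene by gene, it lay above the mean log2 value of the other 2 Sqstm1 KO libraries, by a median of 1.08 over the members. Over all genes tested it did so by a median of 0. It was the highest in 27 of 34 tested members of complex I, 2 of 4 of complex II, 6 of 8 of complex III, 13 of 17 of complex IV and 9 of 14 of complex V. The same library was the highest in 67 of 74 genes for cytosolic ribosomal proteins. Among all genes it was the highest more often where transcripts are short, from 36.5% of genes with a median transcript of at most 500 bases to 16.4% of those over 2000 bases. Members had their highest value there in every length class, in 16 of 18 up to 500 bases, 32 of 48 up to 1000, 5 of 6 up to 2000 and 2 of 3 above. The members' median excess over the other 2 Sqstm1 KO libraries was 1.40, 0.88, 0.97 and 0.94 in these classes, against 0.29, 0.14, 0.09 and -0.21 for all genes. It also had 12673 genes with a read, fewer than the 13349 to 13794 of the other libraries, and its 10 most abundant genes took 18.5% of its reads against 9.74% to 13.9%. What sets this library apart was not tested.

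**Figure D1:**
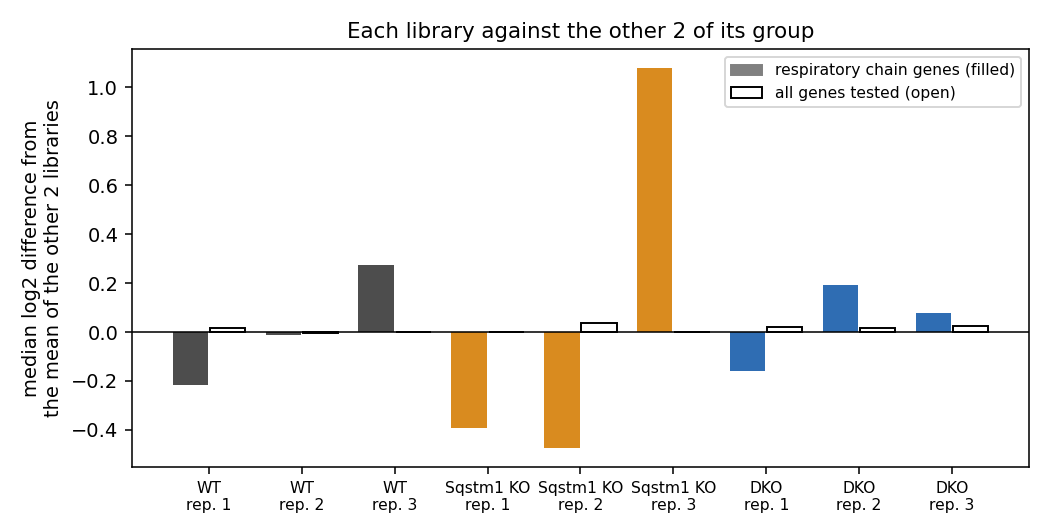
Median log2 difference (y axis) of each library from the mean of the other 2 libraries of its group, over the 77 tested respiratory chain genes (filled bars) and over all 10118 genes tested (open bars). Sqstm1 KO replicate 3 sits 1.08 above its group in the respiratory chain genes, while the open bars stay near 0 in all libraries.

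Transcription of many of these genes is known to depend on the factors NRF1 and GABP. RefSeq promoter windows (GRCm38.p6, 250 bases before the start) were found for 76 members, in 81 windows. The letters GCATGCGC of the NRF1 motif, searched on both strands, were present in 9.88% of member windows, in 2.26% of all 32851 windows and in 3.93% of the 13781 windows of genes in the table. The core CCGGAAG of the GABP motif was present in 18.5% of member windows, 6.91% of all windows and 12.4% of those of genes in the table. For AAGATGGCG, a YY1 motif, the shares were 1.23%, 0.606% and 1.09%, and for AAGGTCA, an estrogen-related receptor motif, they were 4.94%, 4.08% and 2.97%. In all, 24 members held at least 1 of the 4 motifs. No binding was measured here, so a match is only a match of letters, and its absence says nothing of the factor. GCATGCGC is partly its own reverse complement, so both strands can match at overlapping positions.

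Stretches around a match are shown for 6 members whose values are described below, on the strand of the gene and 5′ to 3′, with the motif letters in capitals. The first 3 hold the NRF1 letters and the last 3 the GABP letters. They lie at chr5:108434414-108434473 (minus strand, Atp5k), chr5:115349085-115349144 (minus, Cox6a1), chr4:140961191-140961250 (plus, Sdhb), chr8:83566712-83566757 (plus, Ndufb7), chr1:178319024-178319082 (plus, Cox20) and chr9:50603863-50603921 (minus, Sdhd). The GABP letters of Cox20 and Sdhd are on the other strand and so read CTTCCGG.
Atp5k: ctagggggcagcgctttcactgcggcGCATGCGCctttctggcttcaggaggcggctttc
Cox6a1: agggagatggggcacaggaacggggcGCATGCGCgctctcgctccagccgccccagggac
Sdhb: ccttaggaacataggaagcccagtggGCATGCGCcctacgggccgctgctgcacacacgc
Ndufb7: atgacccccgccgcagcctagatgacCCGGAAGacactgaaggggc
Cox20: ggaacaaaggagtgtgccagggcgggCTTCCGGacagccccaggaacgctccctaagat
Sdhd: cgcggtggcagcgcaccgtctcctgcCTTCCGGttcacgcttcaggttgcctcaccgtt

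No member was called higher or lower in any of the 3 comparisons at an adjusted p of 0.05, by limma on the log2 of the normalized count plus 1. Over all genes tested, 5.61% were called in Sqstm1 KO against WT, 5.93% in DKO against Sqstm1 KO and 6.42% in DKO against WT. At an unadjusted p under 0.05 there were 11, 10 and 10 members (14.3%, 13.0% and 13.0%), against 19.4%, 18.8% and 21.4% of all genes. edgeR's quasi-likelihood test on the recovered reads also called 0 members in each comparison, where it called 6.35%, 6.07% and 7.26% of all genes. DESeq2 called 2 members higher in Sqstm1 KO against WT (Atp5o and Ndufa4), 2 higher in DKO against Sqstm1 KO (Cox20 among them), and 1 higher and 1 lower (Atp5b) in DKO against WT. It called 7.93%, 7.08% and 8.7% of all genes.

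The members' median log2 fold change was 0.30 in Sqstm1 KO against WT, with 53 members positive and 24 negative, beside -0.01 over all genes. In DKO against Sqstm1 KO the median was -0.36, with 17 positive and 60 negative, beside -0.01 over all genes. In DKO against WT it was -0.05, with 36 positive and 41 negative, beside -0.02. Without Sqstm1 KO replicate 3, the medians over 73 tested members were -0.11, 0.01 and -0.08, so the first 2 changed sign. The comparisons share libraries, so their fold changes are not independent. Without that library limma called 0 members in Sqstm1 KO against WT (7 at an unadjusted p under 0.05), where 6.54% of all genes were called. It called 2 higher in DKO against Sqstm1 KO (Ndufa2 among them; 7.67% of all genes). In DKO against WT it called 2 higher (Ndufb11 among them) and 2 lower (Atp5b and Atp5j2; 14.1% of all genes).

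**Figure D2:**
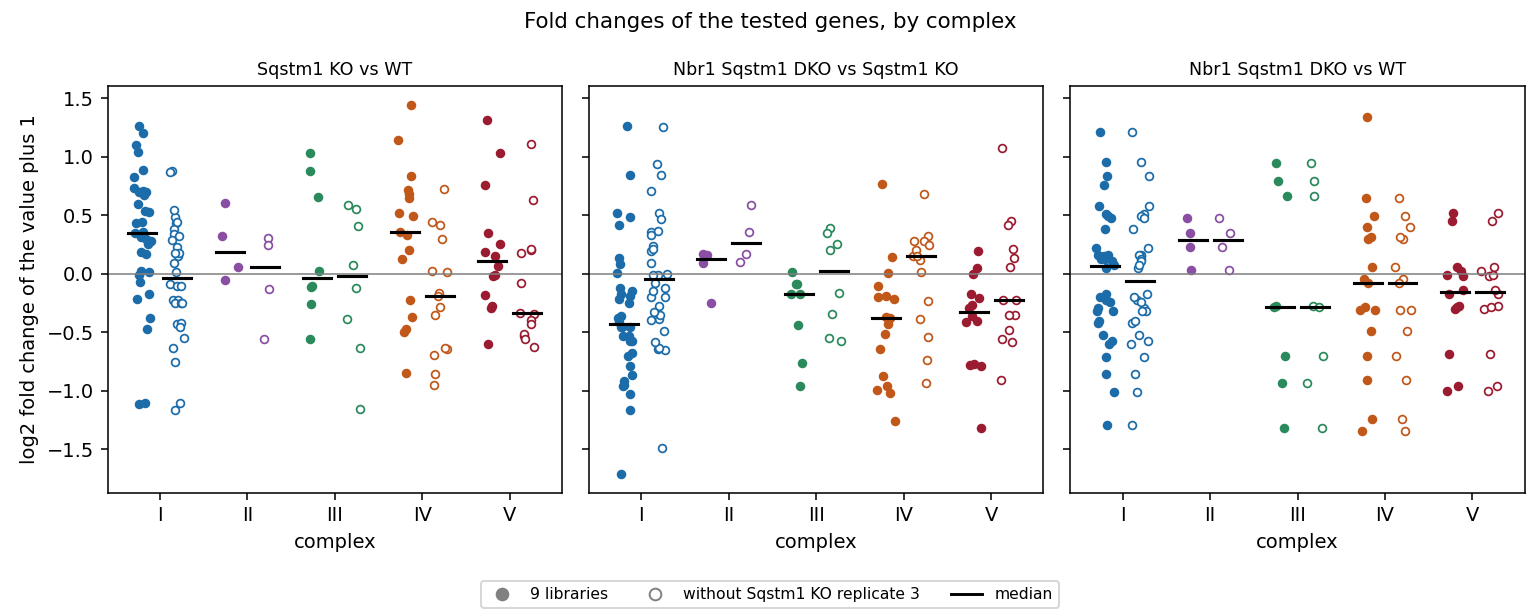
Log2 fold change of the normalized count plus 1 (y axis) of each tested member, by complex (x axis), in the 3 comparisons, with all 9 libraries (filled points) and without Sqstm1 KO replicate 3 (open points); black lines are medians. Without that library the median of complex I in Sqstm1 KO against WT goes from 0.35 to -0.04 and that of complex IV from 0.35 to -0.19.

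Members whose groups did not overlap are counted beside the share of all genes that did the same. In Sqstm1 KO against WT, all 3 knock-out libraries lay above all WT libraries in 12 of 77 members and below in 6, where 12.4% and 13.6% of all genes did. In DKO against Sqstm1 KO the counts were 3 above and 10 below (11.5% and 9.47% of all genes). In DKO against WT they were 9 above and 10 below (15.7% and 15.5%). Without Sqstm1 KO replicate 3 the counts were 12 above and 15 below in Sqstm1 KO against WT (19.7% and 20.5% of all genes). In DKO against Sqstm1 KO they were then 10 above and 11 below (17.7% and 17% of all genes).

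**Figure D3:**
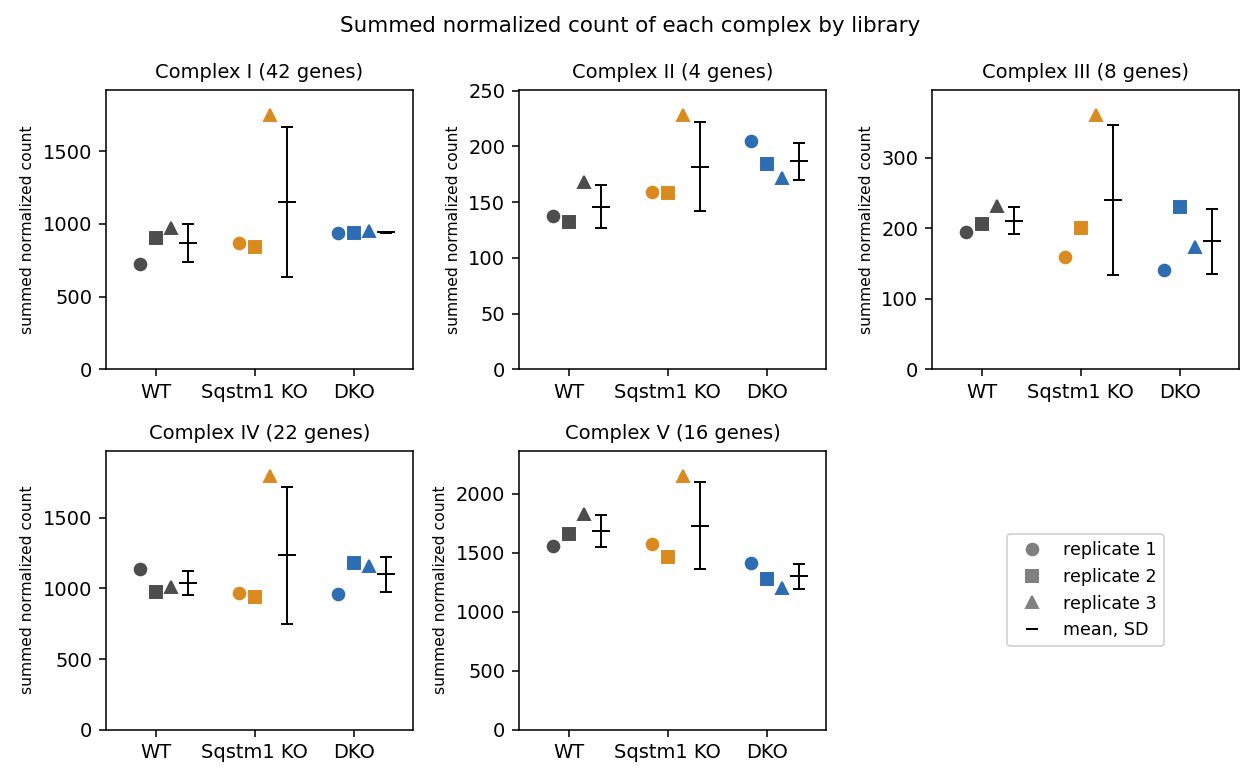
Summed normalized count of the members of each complex (y axis, from 0) in each library, by genotype group (x axis); points are libraries and the black bar with whiskers is the mean and SD of 3 libraries. Sqstm1 KO replicate 3 is the highest library in all 5 panels, and the 3 DKO libraries lie below all others in complex V.

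Complex I oxidises NADH, and of its 42 genes 34 were tested and 0 called by limma, with 5, 4 and 3 at an unadjusted p under 0.05 in the 3 comparisons. Its summed normalized count was 725, 906 and 975 in WT, 869, 841 and 1746 in Sqstm1 KO, and 938, 937 and 949 in DKO. All 3 groups overlapped, and the high Sqstm1 KO library was replicate 3. By limma, 19.4%, 18.8% and 21.4% of all genes had an unadjusted p under 0.05 in the 3 comparisons. The same shares stand beside the counts of the other complexes and lists below.

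Among the core subunits, Ndufs1, the large iron-sulfur subunit, had 98.1, 93.4 and 115 in WT, 88.8, 64.9 and 67.2 in Sqstm1 KO, and 142, 89 and 91.7 in DKO. The Sqstm1 KO libraries lay just below both other groups, yet the limma adjusted p was 0.357 against WT and 0.312 against DKO. Its exons overlap Eef1b2 and Ino80dos on the other strand, which had 26.6 and 17.4 times its normalized count per kilobase. The library kit and the strand setting of the counting have no mention in the labels, so reads of genes that overlap in this way cannot be told apart. Ndufv1 and Ndufv2, which form the NADH-binding module, ranged from 24.5 to 68.3 and from 28.6 to 133, with Sqstm1 KO replicate 3 the highest in both.

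Among the supernumerary subunits, Ndufb7 of the membrane arm had the largest positive difference of complex I in Sqstm1 KO against WT. It had 8.17, 7.53 and 6.67 in WT, 14.3, 14.6 and 33.6 in Sqstm1 KO, and 7.65, 11.4 and 14.0 in DKO. All Sqstm1 KO libraries lay above WT, the third by the most (log2 1.26 ± 0.44, limma adjusted p = 0.119, and 0.87 without replicate 3). The value after ± is the SE, as for all log2 differences given with one. Ndufa12, an accessory subunit of the arm that binds NADH, had the largest negative difference of complex I in both knock-out groups against WT. Its values were 13.6, 28.6 and 29.1 in WT, 10.2, 9.74 and 9.76 in Sqstm1 KO, and 12.4, 12.6 and 3.82 in DKO. Both knock-out groups lay below WT without overlap (log2 -1.11 ± 0.48, limma adjusted p = 0.216, and -1.30 ± 0.48, adjusted p = 0.131). WT replicate 1 was close to the knock-out libraries.

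Ndufb11, which is encoded on the X chromosome, had the largest positive difference of complex I in DKO against WT. Its values were 6.81, 14.3 and 17.0 in WT, 25.5, 20.3 and 45.6 in Sqstm1 KO, and 29.6, 22.8 and 35.7 in DKO. WT was the lowest group, without overlap with either knock-out group (log2 1.21 ± 0.41 in DKO against WT, limma adjusted p = 0.0999, and 0.0357 without Sqstm1 KO replicate 3, within 0.0357 to 0.291 over each library left out). Exons of Rbm10 on the other strand overlap it, with 1.24 times its normalized count per kilobase. Rbm10 was also higher than WT, without a call (log2 0.63 in Sqstm1 KO and 0.33 in DKO). How far reads of Rbm10 enter the Ndufb11 values was not tested. Ndufa1, a small membrane-arm subunit, had the largest negative difference of complex I in DKO against Sqstm1 KO. It had 16.3, 17.0 and 27.1 in Sqstm1 KO, 0.956, 13.7 and 7.64 in DKO, and 8.17, 15.1 and 12.7 in WT. The value of DKO replicate 1 is a single read (log2 -1.72 ± 0.62, limma adjusted p = 0.142, and -1.49 without Sqstm1 KO replicate 3). Ndufaf1, an assembly factor of the membrane arm, had the largest positive difference there. It had 14.3, 5.68 and 2.17 in Sqstm1 KO and 22.9, 20.5 and 7.64 in DKO, and these overlapped (log2 1.26 ± 0.59, limma adjusted p = 0.268, and 0.70 without Sqstm1 KO replicate 3).

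Complex II (succinate dehydrogenase) also belongs to the citric acid cycle, and all 4 of its genes were tested, with 0 called and 0 at an unadjusted p under 0.05. Sdha, the flavoprotein that oxidises succinate, had 80.3, 76.1 and 86.7 in WT, 91.9, 110 and 103 in Sqstm1 KO, and 124, 103 and 113 in DKO. WT was the lowest group without overlap, and the knock-out groups overlapped each other. The log2 difference from WT was 0.32 ± 0.23 for Sqstm1 KO (adjusted p by limma 0.482) and 0.48 ± 0.23 for DKO (adjusted p = 0.249). Sdhb, the iron-sulfur subunit, had 20.4, 17.3 and 18.2 in WT, 23.5, 21.1 and 47.7 in Sqstm1 KO, and 28.7, 25.1 and 19.1 in DKO. Sqstm1 KO lay above WT, most of all in replicate 3 (log2 0.60 ± 0.36, limma adjusted p = 0.388, and 0.25 without it, adjusted p = 0.775). In DKO against Sqstm1 KO its log2 difference was -0.25 ± 0.36 (limma adjusted p = 0.745), and 0.10 without that replicate.

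The membrane anchors of complex II overlapped between all groups. Sdhc had 17.7, 15.1 and 17.6 in WT, 14.3, 16.2 and 22.8 in Sqstm1 KO, and 22.0, 27.4 and 12.7 in DKO. Its log2 difference in DKO against Sqstm1 KO was 0.17 ± 0.37 (limma adjusted p = 0.842), and 0.36 without Sqstm1 KO replicate 3. Sdhd had 19.1, 24.1 and 45.5 in WT, 29.6, 11.4 and 54.2 in Sqstm1 KO, and 29.6, 28.5 and 26.7 in DKO, so its spread within groups was wider than any shift between them. Its log2 difference was -0.05 ± 0.48 in Sqstm1 KO against WT (limma adjusted p = 0.966, and -0.56 without Sqstm1 KO replicate 3) and 0.03 ± 0.48 in DKO against WT (adjusted p = 0.978). Summed over complex II, DKO (205, 184 and 172) lay above WT (138, 133 and 168), and Sqstm1 KO (159, 158 and 228) overlapped both. Sdha made up 57.5% of this sum. Without it the DKO sum (80.3, 81.1 and 58.6) overlapped the WT sum (57.2, 56.5 and 81.3).

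Complex III passes electrons from ubiquinol to cytochrome c, and all 8 of its members were tested, with 0 called and 1 in each comparison at an unadjusted p under 0.05. Its summed normalized count was 195, 206 and 232 in WT, 159, 200 and 360 in Sqstm1 KO, and 141, 231 and 173 in DKO. These groups overlapped. Uqcrb, a small subunit near the quinone site, had 12.3, 17.3 and 15.2 in WT, 13.3, 36.5 and 61.8 in Sqstm1 KO, and 26.8, 29.7 and 31.8 in DKO. DKO lay above WT without overlap (log2 0.94 ± 0.45, limma adjusted p = 0.242). Sqstm1 KO spanned both, with replicate 1 at the WT level (log2 1.03 ± 0.45, limma adjusted p = 0.22). Without that replicate the difference was 1.62 and passed the threshold (limma adjusted p = 0.0234), and without replicate 3, the highest, it was 0.55 (adjusted p = 0.51).

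Uqcr11, another small subunit, had 12.3, 19.6 and 17.6 in WT, 6.13, 7.30 and 26 in Sqstm1 KO, and 0.956, 18.3 and 7.64 in DKO. Each knock-out group spread from below to about the WT range or above it. The log2 difference from WT was -0.55 ± 0.73 for Sqstm1 KO (adjusted p by limma 0.726, and -1.16 without replicate 3) and -1.32 ± 0.73 for DKO (adjusted p = 0.316). Uqcr10 had 31.3, 27.9 and 40.0 in WT, 20.4, 30.0 and 59.7 in Sqstm1 KO, and 9.56, 20.5 and 22.9 in DKO. DKO lay below WT without overlap and overlapped Sqstm1 KO (log2 -0.96 ± 0.42 against Sqstm1 KO, limma adjusted p = 0.239, and -0.55 without Sqstm1 KO replicate 3, adjusted p = 0.465). Uqcrq, whose log2 difference of 0.01 ± 0.60 was the only positive one of complex III in DKO against Sqstm1 KO (limma adjusted p = 0.995, and 0.26 without Sqstm1 KO replicate 3), ranged from 1.36 to 14.1 over the libraries. Uqcrfs1, the Rieske iron-sulfur protein, had 12.3, 6.03 and 9.10 in WT and 13.4, 21.7 and 14.0 in DKO, which did not overlap. The core proteins Uqcrc1 and Uqcrc2 and the hinge protein Uqcrh overlapped between the groups in every comparison.

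Complex IV reduces oxygen, and 17 of its 22 genes were tested, with 0 called by limma and 3 in each comparison at an unadjusted p under 0.05. Its summed normalized count was 1134, 972 and 1007 in WT, 965, 941 and 1795 in Sqstm1 KO, and 957, 1182 and 1156 in DKO. The groups overlapped. Assembly factors held a large share of it, Cox20 alone 30.1%.

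Cox20, which chaperones the mitochondrially encoded subunit COX2, had the highest normalized count per kilobase of exon of the members with an annotated length, at 383. Its values were 389, 335 and 267 in WT, 277, 260 and 223 in Sqstm1 KO, and 398, 452 and 443 in DKO. DKO lay above both other groups without overlap. The log2 difference was 0.77 ± 0.24 against Sqstm1 KO (limma adjusted p = 0.084) and 0.40 ± 0.24 against WT (adjusted p = 0.371). Without Sqstm1 KO replicate 3 the difference of DKO from Sqstm1 KO was 0.68 (limma adjusted p = 0.0871). Exons of Hnrnpu, an abundant RNA-binding protein gene, overlap Cox20 on the other strand. Hnrnpu had a mean of 1406 against 338 for Cox20, and neither gene was called. Both were higher in DKO, Hnrnpu by log2 0.25 against Sqstm1 KO and 0.37 against WT. In Sqstm1 KO against WT their signs differed (0.12 for Hnrnpu and -0.37 for Cox20). How far reads of Hnrnpu enter the Cox20 values was not tested. Cox17, a copper chaperone, had the largest positive difference from WT in both knock-out groups. Its values were 2.72, 6.03 and 5.46 in WT, 7.15, 9.74 and 38 in Sqstm1 KO, and 15.3, 6.85 and 20.4 in DKO. Both knock-out groups lay above WT (log2 1.44 ± 0.60, limma adjusted p = 0.203, and 1.34 ± 0.60, adjusted p = 0.219). Cox17 rested on 111 reads over all 9 libraries, and it did not pass the filter without Sqstm1 KO replicate 3.

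Among the structural subunits, Ndufa4 had 39.5, 61.0 and 78.8 in WT, 76.6, 120 and 228 in Sqstm1 KO, and 62.2, 108 and 80.2 in DKO. Sqstm1 KO overlapped WT at its lowest library (log2 1.14 ± 0.38, limma adjusted p = 0.108). Without that library, replicate 1, the difference was 1.51 (limma adjusted p = 0.0406), and without replicate 3, the highest, it was 0.73 (adjusted p = 0.224). Ndufa4 was named by rule as part of a paralog set, while its difference was described after its values were seen. Cox8a, a small subunit, had 10.9, 16.6 and 23.6 in WT, 8.17, 8.93 and 8.68 in Sqstm1 KO, and 5.74, 14.8 and 10.2 in DKO. Sqstm1 KO lay below WT in all libraries (log2 -0.85 ± 0.45, limma adjusted p = 0.318). Cox6a1 had 35.4, 29.4 and 26.7 in WT, 28.6, 33.3 and 61.8 in Sqstm1 KO, and 7.65, 24.0 and 20.4 in DKO. DKO lay below both other groups without overlap (log2 -1.26 ± 0.42 against Sqstm1 KO, limma adjusted p = 0.109, and -0.94 without Sqstm1 KO replicate 3).

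Cox5b had the largest SE of the tested members. Its values were 9.53, 15.1 and 31.5 in WT, 3.06, 19.5 and 23.9 in Sqstm1 KO, and 0, 33.1 and 8.92 in DKO. The log2 difference of DKO from WT was -1.34 ± 1.02 (limma adjusted p = 0.485), and it was 0.059 without DKO replicate 1. Paralogs that replace each other between tissues were mostly represented by the widespread form. Cox4i1, the regulatory subunit, ranged from 71.4 to 248, Cox6b1 from 55.7 to 187 and Cox7a2 from 2.87 to 24.9, and none of them was called. The muscle form Cox7a1 and the paralog Ndufa4l2 stayed at or below 5.45 and 7.59 and were not tested, and Cox7a2l ranged from 2.17 to 8.17. Cox4i2, Cox6a2, Cox6b2 and Cox8b were not analysed here.

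**Figure D4:**
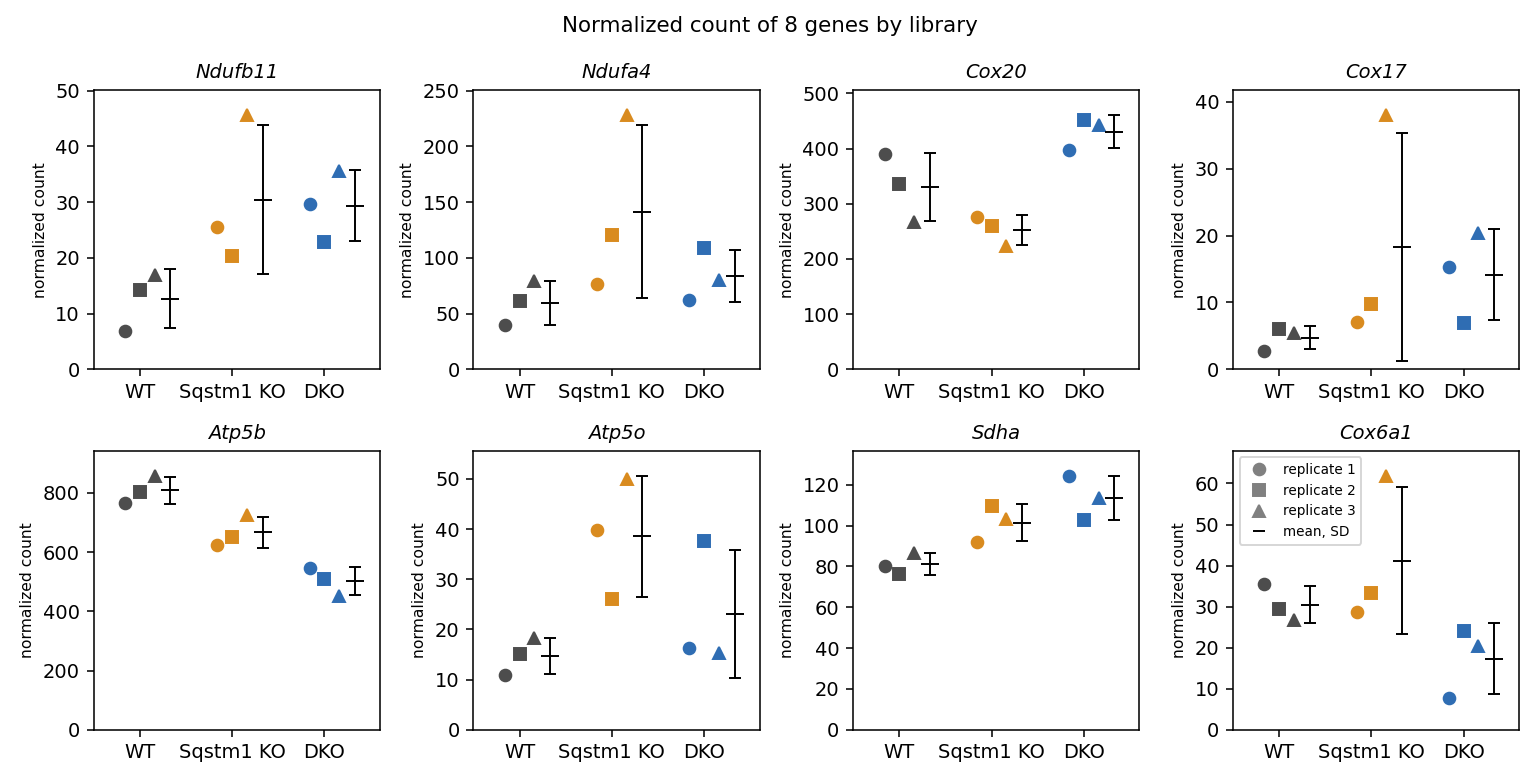
Normalized count (y axis, from 0) of 8 members in each library, by genotype group (x axis); points are libraries and the black bar with whiskers is the mean and SD of 3 libraries. Cox20 is highest in all 3 DKO libraries, Ndufb11 is lowest in all 3 WT libraries, Atp5b steps down from WT to Sqstm1 KO to DKO, and Ndufa4, Cox17, Atp5o and Cox6a1 are highest in Sqstm1 KO replicate 3.

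Complex V is the ATP synthase, and 14 of its 16 genes were tested, with 0 called by limma and 2, 2 and 3 at an unadjusted p under 0.05. Its summed normalized count was 1561, 1660 and 1830 in WT, 1575, 1462 and 2150 in Sqstm1 KO, and 1413, 1281 and 1205 in DKO. All DKO libraries lay below all others, and WT and Sqstm1 KO overlapped. Atp5b, the catalytic beta subunit, made up 42.0% of the sum. Without it DKO (868, 773 and 753) overlapped WT (795, 856 and 973) and Sqstm1 KO (950, 812 and 1425).

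Atp5b had 765, 803 and 857 in WT, 625, 650 and 725 in Sqstm1 KO, and 545, 508 and 452 in DKO. The 3 groups formed separate steps, with Sqstm1 KO between the others. The log2 difference was -0.28 ± 0.24 in Sqstm1 KO against WT (limma adjusted p = 0.567), -0.41 ± 0.24 in DKO against Sqstm1 KO (adjusted p = 0.386) and -0.69 ± 0.24 in DKO against WT (adjusted p = 0.11). The last passed without Sqstm1 KO replicate 3 (limma adjusted p = 0.0315), and had adjusted p up to 0.331 with another library left out. With 6492 reads, Atp5b was the member with the most reads. The alpha subunit Atp5a1, its partner in the F1 head, had 199, 276 and 281 in WT, 275, 299 and 259 in Sqstm1 KO, and 216, 274 and 250 in DKO, and all groups overlapped. Atp5b and Atp5j2 were singled out after their values were seen.

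The gamma subunit of the central rotor, Atp5c1, had 62.6, 65.5 and 89.7 in WT, 47.0, 51.9 and 42.3 in Sqstm1 KO, and 18.2, 58.2 and 40.8 in DKO. Both knock-out groups lay below WT. The log2 difference was -0.60 ± 0.37 for Sqstm1 KO (adjusted p by limma 0.399) and -1.01 ± 0.37 for DKO (adjusted p = 0.126, and from 0.0478, without DKO replicate 2, to 0.402 over each library left out). Atp5j2, a membrane subunit, had 73.5, 61.8 and 77.0 in WT, 63.3, 44.6 and 84.6 in Sqstm1 KO, and 26.8, 47.9 and 35.7 in DKO. DKO lay below WT without overlap (log2 -0.96 ± 0.31, limma adjusted p = 0.0844, and from 0.0251, without Sqstm1 KO replicate 3, to 0.267 over each library left out).

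Atp5o, the stalk protein that confers oligomycin sensitivity, had the smallest adjusted p of the members in Sqstm1 KO against WT. Its values were 10.9, 15.1 and 18.2 in WT, 39.8, 26 and 49.9 in Sqstm1 KO, and 16.3, 37.7 and 15.3 in DKO. Every Sqstm1 KO library lay above WT (log2 1.31 ± 0.40, limma adjusted p = 0.0784, and from 0.0488, without DKO replicate 2, to 0.257 over each library left out), while DKO spanned both (log2 0.52 ± 0.40 against WT, adjusted p = 0.495). Without Sqstm1 KO replicate 3 the difference of Sqstm1 KO from WT was 1.11 (limma adjusted p = 0.148). Atp5k, a small membrane subunit, had 17.7, 18.8 and 21.2 in WT, 29.6, 30.8 and 71.6 in Sqstm1 KO, and 26.8, 9.13 and 15.3 in DKO. Sqstm1 KO lay above both other groups (log2 -1.32 ± 0.43 in DKO against Sqstm1 KO, limma adjusted p = 0.0982, and -0.91 without Sqstm1 KO replicate 3). Atp5e, the epsilon subunit, had the largest positive difference of complex V in that comparison, 0.19 ± 0.68 (limma adjusted p = 0.906, and 1.08 without Sqstm1 KO replicate 3), on values from 9.74 to 73.8 that overlapped throughout. Of the c-ring genes, Atp5g3 ranged from 34.2 to 68.8 and was not called, and Atp5g1 ranged from 0.956 to 10.2 and was not tested.

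The 15 members that did not pass the filter were Atp5g1, Atp5l, Cox7a1, Cox7a2l, Cox10, Cox14, Ndufa4l2, Ndufa11, Ndufaf5, Ndufaf6, Ndufb1, Ndufb2, Ndufb3, Ndufb4 and Ndufs3. The lowest was Ndufb4, with 20 reads over 9 libraries and values from 0 to 7.59. The core subunit Ndufs3 ranged from 3.42 to 9.76. Ndufa11, a membrane-arm subunit, ranged from 2.55 to 15.2, with its highest value in Sqstm1 KO replicate 3. Their differences were not tested. In some of them the groups did not overlap, on few reads, and the share of other genes below the filter that did so was not computed. Ndufb2, a small membrane-arm subunit, had 2.72, 4.52 and 1.82 in WT, 14.3, 9.74 and 15.2 in Sqstm1 KO, and 2.87, 7.99 and 6.37 in DKO, so Sqstm1 KO lay above both other groups. Ndufa4l2 also did, with 1.36 to 1.82 in WT, 4.87 to 7.59 in Sqstm1 KO and 0 to 3.82 in DKO. The assembly factor Ndufaf5 was highest in DKO, at 6.37 to 9.56 against 1.21 to 4.52 in WT and 0 to 4.87 in Sqstm1 KO. Untested members were named by rule, but the gaps between groups of these 3 were singled out after their values were seen. The 3 genes rested on 66, 30 and 38 reads over 9 libraries.

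Per kilobase of annotated exon, Cox20 (383), Atp5b (156) and Cox6b1 (118) had the highest mean normalized counts, and Atp5l (0.349) and Cox10 (0.929) the lowest. Gene models of other genes bear on these values. Of 89 members matched to the annotation, 30 (33.7%) shared exon positions with a gene on the other strand, against 36.5% of all matched genes. In 13 of 26 pairs with both genes in the table the partner had the higher normalized count per kilobase. For Ndufa9 the partner 1700018A23Rik had 52.8 times the member's value, and for Uqcrc2 the partner Pdzd9 had 26.3 times. Also, 9 pseudogenes in the annotation are named after 7 members (Atp5c1, Atp5k, Atp5l, Cox7c, Ndufab1, Ndufb1 and Uqcrh), whose counts are uncertain for that reason. How far these reads enter the members' values was not tested.

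Genes that serve the same pathway gave mixed results. Of 34 further assembly factors in the table, 21 were tested, and limma called 0 in Sqstm1 KO against WT (4 at an unadjusted p under 0.05, and 0 by edgeR and DESeq2). In DKO against Sqstm1 KO, 1 rose (Coa6) and 2 fell (Uqcc2 and Dmac1), and in DKO against WT, 1 rose (Coa6) and 1 fell (Uqcc2). edgeR and DESeq2, run on the same filtered genes, called the same 3 and 2 genes. Over all genes tested, limma called 5.61%, 5.93% and 6.42% in the 3 comparisons. By limma, 19.0%, 19.0% and 9.52% of the list had an unadjusted p under 0.05, against 19.4%, 18.8% and 21.4% of all genes. Uqcc2, needed for the synthesis of cytochrome b of complex III, had 36.8, 45.2 and 66.7 in WT, 24.5, 44.6 and 53.1 in Sqstm1 KO, and 5.74, 24.0 and 8.92 in DKO. DKO lay below both other groups (log2 -2.05 ± 0.46 against WT, limma adjusted p = 0.0161, and -1.75 ± 0.46 against Sqstm1 KO, adjusted p = 0.0396). The call against WT was lost without WT replicates 2 or 3 or DKO replicates 1 or 3 (adjusted p 0.0622 to 0.101). That against Sqstm1 KO held only without Sqstm1 KO replicate 1 or DKO replicate 2, and otherwise had adjusted p from 0.0573 to 0.173 with 1 library left out.

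Coa6, which takes part in copper delivery to complex IV, had 34.0, 26.4 and 33.4 in WT, 38.8, 21.9 and 33.6 in Sqstm1 KO, and 58.3, 66.2 and 75.1 in DKO. DKO lay above both other groups (log2 1.07 ± 0.29 against WT, limma adjusted p = 0.0449, and 1.09 ± 0.29 against Sqstm1 KO, adjusted p = 0.0438). The call against WT was lost without any 1 of the WT or DKO libraries (adjusted p 0.0823 to 0.215). That against Sqstm1 KO held only without Sqstm1 KO replicates 1 or 3, and otherwise had adjusted p from 0.0612 to 0.186. Exons of Tarbp1 overlap Coa6 on the other strand. Dmac1, a factor of the distal membrane arm of complex I, had 8.17, 5.27 and 6.67 in WT, 12.3, 13.0 and 42.3 in Sqstm1 KO, and 2.87, 3.42 and 6.37 in DKO. Its highest value was again in Sqstm1 KO replicate 3 (log2 -2.00 ± 0.54 in DKO against Sqstm1 KO, limma adjusted p = 0.0422). This call was lost without any 1 of the WT or DKO libraries (adjusted p 0.0648 to 0.156), and Dmac1 did not pass the filter without any 1 of the Sqstm1 KO libraries. No WT or DKO library reached the filter value, so Dmac1 was tested only because of the group in which it was high. The call cannot be told apart from this selection. The calls of Dmac1 by edgeR and DESeq2 share this limit, since they used the same filtered genes.

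Of the regulators of mitochondrial biogenesis, 8 were tested and 0 called by limma or edgeR in the 3 comparisons, with 1, 2 and 0 at an unadjusted p under 0.05 by limma. DESeq2 called 1 (Tfb1m) lower in DKO against Sqstm1 KO. Gabpa, a subunit of GABP, had 242, 208 and 163 in WT, 296, 247 and 319 in Sqstm1 KO, and 232, 248 and 323 in DKO, and Nrf1 ranged from 2.55 to 19.4. The Gabpa groups overlapped in DKO against WT, while all Sqstm1 KO libraries lay above WT. Of the mRNAs encoded by mitochondrial DNA, 7 were tested and 0 called by limma or edgeR, with 0, 0 and 1 at an unadjusted p under 0.05 by limma. DESeq2 called ND6 higher in Sqstm1 KO against WT and lower in DKO against Sqstm1 KO, and ND4 lower in DKO against WT. Their median log2 fold change was 0.07, -0.39 and -0.42 in the 3 comparisons (-0.26, -0.19 and -0.42 without Sqstm1 KO replicate 3), and 4 of the 7 had their highest value in Sqstm1 KO replicate 3.

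Cyc1, which encodes the complex III core subunit cytochrome c1, has a symbol outside the rule and is not in the complex III counts. It had 31.3, 18.1 and 26.7 in WT, 26.5, 11.4 and 19.5 in Sqstm1 KO, and 9.56, 19.4 and 17.8 in DKO, and the groups overlapped. Neither Cyc1, Cycs (cytochrome c) and Hccs (which attaches heme to cytochromes c and c1) nor the 14 citric acid cycle enzymes held a gene called by limma, edgeR or DESeq2 in any comparison. By limma at an unadjusted p under 0.05 the first 3 gave 2, 1 and 1 genes and the enzymes 0, 2 and 3. The median log2 fold change of the citric acid cycle enzymes was -0.06 in Sqstm1 KO against WT, -0.29 in DKO against Sqstm1 KO and -0.28 in DKO against WT. Without Sqstm1 KO replicate 3 the first 2 were 0.04 and -0.40.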

How the data were processed

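Gene-level RNA sequencing values of 9 libraries in 3 groups of 3 were used, with 0 columns left unused. The deposited table holds a signal for each gene, and from the values themselves this is a read count over a scaling factor of the library. Its values above 0 were whole multiples of the step of their library (100% of 121126, tolerance 0.01), so whole reads were recovered, and their scaling factors had a correlation of 1 with size factors computed by DESeq2. STAR, DESeq2 and the build GRCm39 are named per the submitters' processing notes. The annotation, the read counter, its strand setting and the library kit have no mention there. The lowest gene had 14 reads over the libraries, and genes without a row were not analysed here. As no molecular identifiers are mentioned, reads cannot be taken as separate molecules.

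Differences were fitted by limma 3.58.1 (R 4.3.3) with a mean-variance trend on the log2 scale with a pseudocount of 1, in 1 model of the 3 groups with no covariate. It covered the 10118 genes whose normalized count reached 10 in 3 or more libraries. The test was two-sided, with 14.0 degrees of freedom after moderation, and p was adjusted by Benjamini-Hochberg over all these genes. A fold change on this scale understates the change of low genes. With 3 libraries a group, the smallest p of an exact permutation would be 0.1. The fit was run on simulated counts with the same dispersion for every gene and no library set apart. That run therefore does not speak to a library such as Sqstm1 KO replicate 3. Alternatives were edgeR 4.0.16 and DESeq2 1.42.0 on the recovered reads, another pseudocount (5), other filters (none, or 50), TMM and quantile scaling, the replicate block, the 2 groups alone, each library left out, and narrower lists of members. Genes were named by a rule that took every called member, the largest difference in each direction per complex and comparison, the complex II genes, paralog sets, untested members, Sqstm1 and Nbr1, and genes called in the related lists. Further genes named for an overlap or a gap between groups were chosen after their values were seen. The values of 1 member are not reported here. Members, lists and tests were chosen with earlier results of these data known.

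Exon overlaps and lengths came from GENCODE M21 on the earlier build GRCm38, with 12373 genes matched by name (88.3%), and no coordinates were moved between builds. Promoter sequences came from RefSeq (GRCm38.p6).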

Additional observations from a re-analysis of the deposited data

How the results depend on the processing

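No member was called in any of the 3 comparisons, and this count of 0 was also obtained with a pseudocount of 5, no filter, TMM scaling and edgeR, over structural subunits only and over members without exon overlap. It became 1 higher in both DKO comparisons with the filter of 50, and 1 lower (Atp5b) in DKO against WT with quantile normalization. With the 2 groups alone, DKO against WT gave 1 higher and 2 lower. DESeq2 gave 2 higher in Sqstm1 KO against WT, 2 higher in DKO against Sqstm1 KO, and 1 higher and 1 lower in DKO against WT. Whether the replicate numbers pair the samples was not settled. Correlations of same-numbered libraries ran from -0.12 to 0.18, and those of other pairs from -0.26 to 0.26. Each Sqstm1 KO library correlated best with the DKO library of its number (0.15, 0.13 and 0.06), while WT replicate 3 matched its number in neither group. The replicate block gave 1 higher (Ndufa4) in Sqstm1 KO against WT and 0 otherwise. With 1 library left out, the counts ranged from 0 to 2 higher in Sqstm1 KO against WT, from 0 to 2 higher and 0 to 1 lower in DKO against Sqstm1 KO, and from 0 to 2 higher and 0 to 2 lower in DKO against WT. These counts were above 0 without Sqstm1 KO replicate 1, 2 or 3 or DKO replicate 2, and 0 without any other. Besides the main fit, the share of all genes called was computed only for edgeR, DESeq2 and without Sqstm1 KO replicate 3. Without that library it was 6.54%, 7.67% and 14.1% in the 3 comparisons, against 5.61%, 5.93% and 6.42% in the main fit. In the other settings a count therefore cannot be read as particular to the members.

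The members' median log2 fold change ranged with 1 library left out from -0.11 to 0.60 in Sqstm1 KO against WT, from -0.49 to 0.01 in DKO against Sqstm1 KO, and from -0.16 to 0.0029 in DKO against WT. In the first 2, the sign turned without Sqstm1 KO replicate 3 alone. Quantile normalization gave 0.29, -0.37 and -0.11, and the filter of 50 turned the last to 0.0069.

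Of 43 single-gene differences, 6 changed sign in some setting, all of them uncalled. For DKO against Sqstm1 KO, Atp5e was -0.068 by DESeq2 and ranged from -0.44 to 1.08 with 1 library left out, and Uqcrq was -0.075 by quantile normalization, -0.011 by DESeq2 and from -0.11 to 0.26. Sdhc ranged from -0.053 to 0.47 and Sdhb from -0.47 to 0.10 there. For Sqstm1 KO against WT, Sdhd was 0.014 by edgeR, 0.067 by DESeq2 and from -0.56 to 0.52. For DKO against WT, Cox5b ranged from -2.49 to 0.059. The cause was not tested.

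Over structural subunits only, the mean summed normalized count of complex I in DKO was 865, that of complex IV was 394 in WT, 614 in Sqstm1 KO and 413 in DKO, and that of all complexes was 3246 in WT and 2947 in DKO, since fewer genes are summed. Chosen after seeing the data, complex II without Sdha gave means of 65.0, 80.3 and 73.3 in WT, Sqstm1 KO and DKO, and complex V without Atp5b gave 875, 1062 and 798. Depth limits these values, since 55 of the 77 tested members had fewer than 20 reads in at least 1 library.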
